A study of Mus musculus with 2 samples.

Results

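The histone genes on a whole mouse genome array were compared between FGF18-injected and PBS-injected back skin, in RNA that had been selected for a poly(A) tail. A gene was taken as a histone gene when a probe outside the array's controls carried a name that begins with Hist1h to Hist4h, with H2af or with H3f3, or was H1f0 or H1fx. This rule gave 45 genes with 68 probes, each printed as 1 spot, of 27576 named genes with 41165 probes. The 34 genes with a Hist name (46 probes) are called replication-dependent here, and the other 11 (22 probes) are called replacement histones. Names are those of the array design, which predate the current H2ac, H2bc, H3c and H4c symbols.

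Histones are the proteins around which DNA is wound in the nucleosome: H2A, H2B, H3 and H4 form its core, and the linker histone H1 sits where DNA enters and leaves it. Replication-dependent histone genes lie in clusters, lack introns and are transcribed mainly in S phase; their mRNA normally ends in a conserved stem-loop, bound by the stem-loop binding protein SLBP, and not in a poly(A) tail. Replacement histones such as H3.3 and H2A.Z are made through the whole cell cycle from ordinary polyadenylated mRNA, and some replication-dependent genes are known to give polyadenylated forms as well. Selection on oligo(dT) keeps RNA with a poly(A) stretch, so the signals below describe what was kept and amplified, not the total histone mRNA of the skin.

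Both groups were male C3H/HeN mice, 61 days old, whose back hair had been removed 5 days earlier so that follicles entered anagen, their growing phase. On day 4 either 1 µg of FGF18 protein, a secreted fibroblast growth factor, or phosphate-buffered saline (PBS) was injected under the skin, and full-thickness dorsal skin was taken 24 h later. The labels name 3 mice without saying whether that is the number in each group; the design text has RNA pooled within groups, and the extraction protocol has it taken from each mouse on its own. The PBS sample is titled telogen, the resting phase, but labelled anagen in the source name and in the hair cycle field. There was 1 single-colour array per group, so no difference has a replicate check, no test was made, and precision is limited throughout by the number of arrays.

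The share of 43379 probe spots well above background was 62.4% with FGF18 and 61.5% with PBS, and 0 spots were saturated; both arrays lay on 1 slide and were scanned together. A probe called measured was well above background on both arrays. Signals are processed intensities as deposited, and a log2 ratio is FGF18 minus PBS after each array was scaled to its 75th percentile (a signal of 1020 and 899). The median log2 ratio of 16611 measured genes was -0.07 (SD 0.40). Without scaling this median was 0.11, so members are read against it and not against 0. Spot error was taken from 182 probes printed as 10 spots each: the median SD of a spot's log2 ratio was 0.12 among dim probes, 0.042 among those of middle signal and 0.026 among bright ones. Markers of basal and differentiated epidermis, hair matrix, fibroblasts, proliferating cells, leukocytes, muscle, adipocytes and endothelium were all measured, and 3 of 4 dermal papilla markers were.

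Most histone probes gave signal from the poly(A)-selected RNA, those of replication-dependent genes included. Of the 46 replication-dependent probes 39 were measured, and of the 22 replacement probes 21 were, beside 59.1% of all probes on the array. By gene, 32 of 34 replication-dependent and 11 of 11 replacement histones were measured on at least 1 probe, beside 60.2% of all genes. Hist1h2ac (signals of 6.72 on FGF18 and 8.61 on PBS) and Hist1h2be (9.24 and 6.27) were not well above background on either array. No member was measured on 1 array alone. How a replication-dependent probe comes to give signal after oligo(dT) selection was not tested.

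The brightest histone signals came from both classes. On the PBS array the measured replication-dependent probes ran from 33.7 to 42400 with a median of 1080, and the measured replacement probes from 50.9 to 66800 with a median of 2770. A PBS signal over 10000 was reached by 6 of 39 replication-dependent and 9 of 21 replacement probes, beside 6.04% of all measured probes. Signals under 100 were found for 8 of 39 and 1 of 21, beside 18.8% of all measured probes. All 6 of these bright replication-dependent probes were H2A or H3 probes: Hist1h2aa, Hist1h2af, Hist2h2ac, Hist3h2a, Hist1h3d and Hist2h3c1. Probes differ in how well they bind, and the H3f3b probes alone gave PBS signals of 61700, 49200 and 101, so signals of different probes are not an order of transcript levels.

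**Figure D1:**
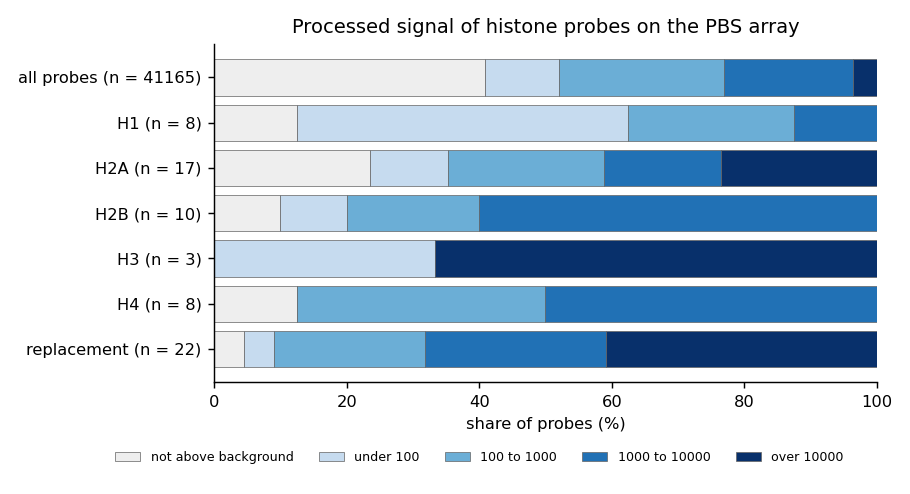
Share of probes (%) in 5 classes of processed signal on the PBS array, for all 41165 probes and for the probes of each histone family, with the number of probes beside each bar; a probe not well above background on both arrays is in the palest class. The darkest class, over 10000, holds 4 of 17 H2A, 2 of 3 H3 and 9 of 22 replacement probes, and 0 probes of H1, H2B and H4.

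Histone genes of a family are alike in sequence, and the annotation of the array lists more than 1 gene for some of the probes. Through the listed accessions, of which the array gives at most 4 per probe, 41 member probes matched 1 RefSeq histone gene, 13 matched several and 14 matched none. Nearly all of the 41 probes with 1 gene also list 4 accessions, so their lists may be incomplete. All 13 probes with several genes were replication-dependent probes, and all 13 were measured. Of the 14 without a RefSeq histone transcript 8 were measured. The member probes list 59 of 82 protein-coding histone genes in RefSeq, 22 of them on more than 1 probe. A signal named for Hist1h3d, for example, may also come from Hist1h3b, Hist1h3e or Hist1h3i, which the same probe lists. Replication-dependent probes with 1 listed gene had a median log2 ratio of -0.15 (22 measured), and those with several -0.16 (13 measured). Within H2A these medians were -0.30 (6 measured) and -0.45 (5 measured), and both histone probes that were 2-fold lower list several genes. The probes' own sequences are not used here, and binding beyond the listed genes was not tested.

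Between the arrays most histone genes lay near the median of all genes, and the H2A family had the lowest median. With probes of several genes left out the order turned, with H1 at -0.20 and H2A at -0.18 against all genes. The replication-dependent genes had a median log2 ratio of -0.16, from -1.09 to 0.26, with the middle of the genes between -0.33 and -0.04 (quartiles). The replacement genes had a median of -0.04, from -0.30 to 0.35, with quartiles of -0.25 and 0.01. The class medians thus lay 0.12 apart (-0.12, replication-dependent minus replacement), less than the spread within either class, and the classes overlapped over most of their range. Set against the median of all genes, 20 of 32 replication-dependent genes were below and 12 above, and 5 of 11 replacement genes were below and 6 above. In whole skin, fewer cells of a type and less RNA per cell cannot be told apart.

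**Figure D2:**
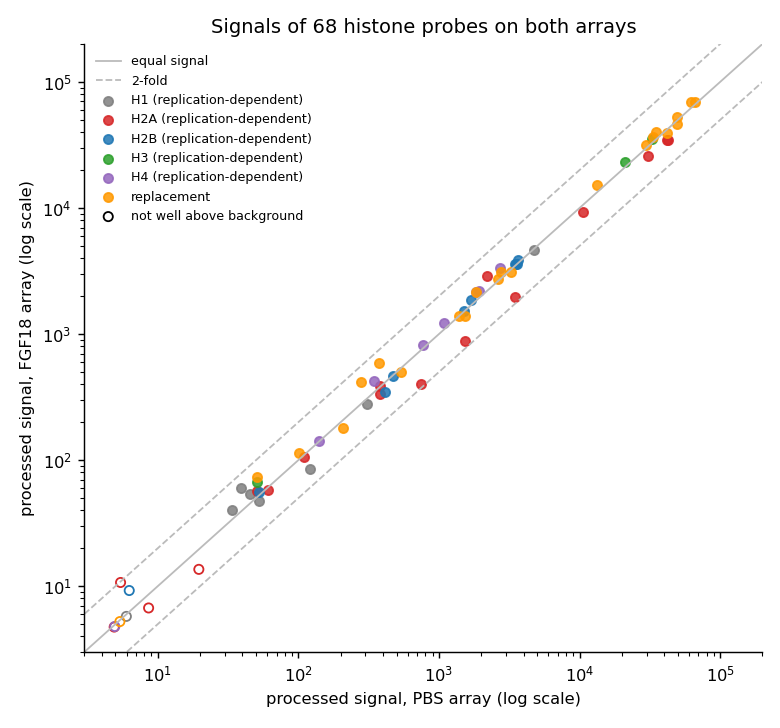
Processed signal of each of the 68 histone probes on the FGF18 array (vertical, log scale) against the PBS array (horizontal, log scale), before scaling, coloured by family; open circles are probes not well above background. Nearly all lie close to the line of equal signal, and the H2A probes at PBS signals of 750, 1520 and 3490 lie nearest to the lower 2-fold line.

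At 2-fold, 1 of 32 measured replication-dependent genes was lower on the FGF18 array, beside 0.987% of all measured genes, and 0 were higher, beside 1.54%. At 1.5-fold, 4 of 32 were lower (Hist1h2ai, Hist1h2ak, Hist1h2af and Hist1h1b), beside 4.82% of all genes, and 0 were higher, beside 3.79%. Of the 11 replacement histones 0 were 1.5-fold apart in either direction, beside 8.61% of all genes at 1.5-fold and 2.53% at 2-fold. At 3-fold, which 0.963% of all genes passed, 0 of the 43 measured histone genes were apart. Counted by probe, 2 of 39 replication-dependent probes were 2-fold lower, beside 1.06% of all measured probes, and 4 were 1.5-fold lower, beside 5.34%; 0 were higher by 2-fold, beside 1.47%, or by 1.5-fold, beside 4.03%. By the error that the scanner software assigned to each spot, 5 of 60 measured histone probes lay more than 2 SD below the median of all genes, beside 6.2% of all spots, and 2 lay more than 2 SD above it, beside 8.52%. The 5 belonged to Hist1h2ai, Hist1h2ak, Hist1h2af, Hist1h2aa and Hist1h1b, and the 2 were probes of H1f0. That error (0.20 to 0.42 for a log2 ratio of these probes) covers the spots and not the mice.

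**Figure D3:**
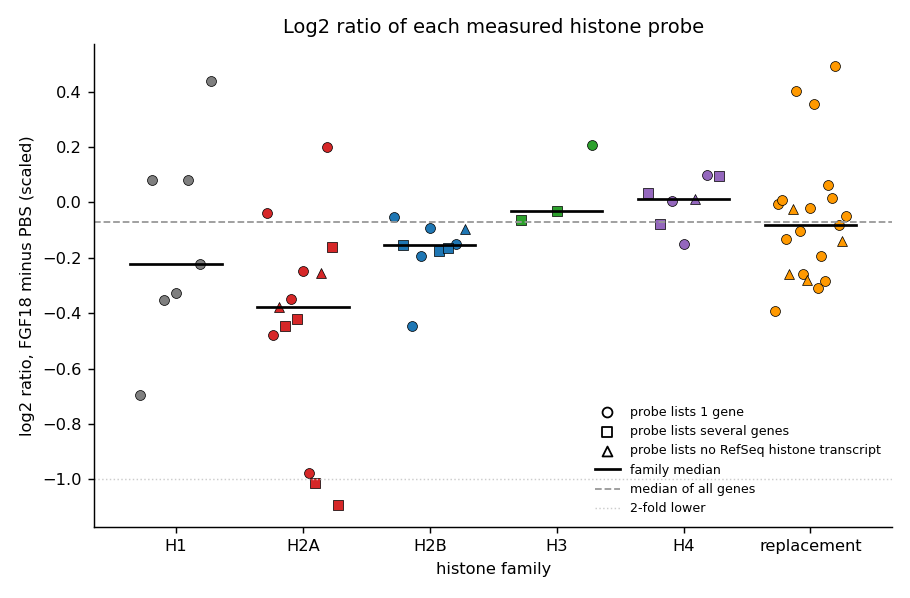
Log2 ratio (FGF18 minus PBS, scaled) of each measured histone probe by family; circles list 1 gene, squares several, triangles no RefSeq histone transcript, bars are medians over probes and the dashed line is the median of all genes (-0.07). H2A probes reach from 0.20 down to -1.09, whereas the H2B probes lie between -0.44 and -0.05 and the H4 probes between -0.15 and 0.10.

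The lowest single ratios were those of H2A genes. Of 10 measured H2A genes 9 were below the median of all genes, and their median was -0.34, or -0.27 against all genes. The probe named Hist1h2ai, which lists Hist1h2ah, Hist1h2ai, Hist1h2an and Hist1h2ap, had a signal of 399 with FGF18 and 750 with PBS, a log2 ratio of -1.09 (2.13-fold lower). Hist1h2ak, whose probe lists that gene alone, had 875 and 1520, a log2 ratio of -0.98. A probe of Hist1h2af that lists Hist1h2ad, Hist1h2af, Hist1h2ak and Hist1h2ap had 1960 and 3490, a log2 ratio of -1.01. These 3 probes share listed genes, so they are not 3 separate measurements of H2A RNA.

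The other measured H2A probes, brighter or dimmer, differed less between the arrays than the 3 above. Another Hist1h2af probe, listing Hist1h2af and Hist1h2ap, had signals of 34600 on FGF18 and 41600 on PBS, a log2 ratio of -0.45. Hist2h2ac, which shares its probe with Hist2h2aa1 and Hist2h2aa2, had 25900 and 30600, a log2 ratio of -0.42. For Hist1h2aa, the testis-type H2A, the signals were 34500 and 42400 and the log2 ratio was -0.48. These 3 ratios lie within -0.48 to -0.42, and the other H2A probe over 10000, of Hist3h2a, was at -0.35. Hist1h2ap is listed both on a probe at -1.09 and on a probe at -0.45, so that the probes that name this gene gave unlike ratios.

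Other H2A genes lay nearer to the median of all genes. Hist3h2a, on chromosome 11 outside the main clusters, had 3 measured probes that did not agree: 332 on FGF18 and 380 on PBS (log2 ratio -0.38), 9350 and 10500 (-0.35), and 2870 and 2200 (0.20). The first of these lists no RefSeq histone transcript and is annotated to the opposite strand, so it may not measure Hist3h2a. The last 2 list Hist3h2a alone, and they lay on either side of the median of all genes. Hist2h2aa1 had 385 and 379 (-0.16), Hist1h2ab 105 and 110 (-0.25), and Hist2h2aa2 58.1 and 61.1 (-0.25) on a probe that lists no RefSeq histone transcript. Hist1h2ae, with 56.4 and 51.1 (-0.04), was the H2A gene above the median of all genes. With the probes that list several genes left out, the H2A median against all genes was -0.18 over 6 genes.

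H2B genes, the partners of H2A in the nucleosome, lay close together. Their median log2 ratio was -0.16 over 7 measured genes, or -0.09 against all genes. Without a filter on dim probes that difference was 0.02. Both probes of Hist1h2bk, each listing 4 genes, gave nearly the same ratio, with 1530 on FGF18 and 1500 on PBS (-0.15) and 3580 and 3540 (-0.17). Hist1h2bm had 3590 and 3570 (-0.17), and Hist2h2be 468 and 472 (-0.19). The lowest H2B ratio was that of Hist3h2ba, with 345 and 414 (-0.44). The probe named Hist3h2bb, which lists the transcript of Hist3h2ba but is annotated to the opposite strand, had 3570 and 3490 (-0.15). Hist1h2ba, the testis-type H2B, had 1860 and 1700 (-0.05), the highest of the family. Hist1h2bc had 3880 and 3650 on a probe that lists it alone and 56.0 and 52.7 on another, both at -0.09. The dim one lists no RefSeq histone transcript.

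Many H2A and H2B genes are transcribed away from each other from a shared stretch of DNA, which makes their ratios worth setting side by side. In the RefSeq promoter table (assembly GRCm38.p6, 250 bases before and 50 after each start), 10 such pairs on chromosome 13 overlapped by 220 to 279 bases. Both partners were listed on measured probes for 6 pairs, and in 5 of the 6 every H2A probe had a lower log2 ratio than every H2B probe. Hist1h2ai was listed on a probe at -1.09, and its partner Hist1h2bl on probes at -0.17 and -0.15. Hist1h2ak was listed on probes at -1.01 and -0.98, and its partner Hist1h2bn at -0.17. Hist1h2aa was at -0.48 and Hist1h2ba at -0.05; this is the pair whose probes list 1 gene each. The pair Hist1h2ae and Hist1h2bg ran the other way, with -0.04 and -0.17. Several of these pairs rest on the same probes, so the 5 are not independent.

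The promoters of Hist1h2ai and Hist1h2ak, for which the probes with the lowest H2A gene values are named, are shown with those of testis-type Hist1h2aa and the replacement gene H3f3b. They were chosen because their sequences differ in the motifs typical of histone genes. The probe named Hist1h2ai lists 4 genes and is annotated to the minus strand, so its ratio cannot be assigned to the Hist1h2ai promoter. Capitals mark every match, on either strand, to the octamer ATTTGCAT, to TATAAA or to CCAAT. The windows are those of RefSeq on GRCm38.p6: Hist1h2ai at chr13:21716162-21716461 (plus strand), Hist1h2ak at chr13:21753863-21754162 (minus strand), Hist1h2aa at chr13:23934187-23934486 (plus strand) and H3f3b at chr11:116024455-116024754 (minus strand).
Hist1h2ai: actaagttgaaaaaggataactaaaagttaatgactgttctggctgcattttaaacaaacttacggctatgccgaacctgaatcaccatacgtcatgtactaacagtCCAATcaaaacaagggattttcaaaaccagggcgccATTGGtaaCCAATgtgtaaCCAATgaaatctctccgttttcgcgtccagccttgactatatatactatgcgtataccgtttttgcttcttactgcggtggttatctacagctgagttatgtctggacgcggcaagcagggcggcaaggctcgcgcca
Hist1h2ak: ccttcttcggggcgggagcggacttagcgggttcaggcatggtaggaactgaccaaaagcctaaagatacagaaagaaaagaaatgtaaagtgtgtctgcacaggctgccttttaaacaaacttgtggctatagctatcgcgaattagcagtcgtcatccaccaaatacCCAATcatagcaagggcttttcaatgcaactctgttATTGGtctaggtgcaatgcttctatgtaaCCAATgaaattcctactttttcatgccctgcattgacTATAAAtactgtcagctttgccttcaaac
Hist1h2aa: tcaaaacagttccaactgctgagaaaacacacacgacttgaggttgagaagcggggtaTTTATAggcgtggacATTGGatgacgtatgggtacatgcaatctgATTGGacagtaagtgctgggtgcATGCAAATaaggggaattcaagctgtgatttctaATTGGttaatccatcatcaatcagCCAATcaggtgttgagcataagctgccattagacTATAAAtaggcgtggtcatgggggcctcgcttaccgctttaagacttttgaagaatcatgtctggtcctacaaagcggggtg
H3f3b: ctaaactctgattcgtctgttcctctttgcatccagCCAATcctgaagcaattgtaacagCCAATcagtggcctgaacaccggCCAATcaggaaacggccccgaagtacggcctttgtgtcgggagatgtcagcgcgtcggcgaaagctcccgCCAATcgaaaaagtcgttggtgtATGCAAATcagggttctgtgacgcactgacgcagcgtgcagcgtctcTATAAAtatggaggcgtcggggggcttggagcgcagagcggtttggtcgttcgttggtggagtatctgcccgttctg

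The table held a promoter for 38 of the 45 histone genes, 39 promoters in all. The octamer, a binding site of POU-domain factors known from H2B promoters, was in 10 of 30 replication-dependent promoters, with 6 of 11 for H2A, 4 of 6 for H2B and 0 for H1, H3 and H4, and in 1.74% of all 32851 promoters in the table. Among 9 replacement promoters H3f3b alone had the octamer. The counts are not independent: the overlapping promoters of Hist1h2aa and Hist1h2ba hold the same octamer site, counted for H2A and for H2B. The 6 H2B promoters belong to 5 genes. TATAAA was in 18 of 30 replication-dependent promoters, in 1 of 9 replacement promoters and in 13.6% of all. CCAAT was in 27 of 30, in 6 of 9 and in 37.4% of all. Hist1h2ai had 4 CCAAT matches and neither of the other motifs, Hist1h2ak 3 CCAAT matches with TATAAA 21 bases after the annotated start, and Hist1h2aa all 3 motifs, with TATAAA beginning 32 bases before the start. H3f3b also held all 3, with TATAAA beginning 27 bases before the start. The TATAAA and octamer letters do not overlap with CCAAT in the sequences shown. A match describes the letters only.

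H3 and H4 genes, which form the central tetramer of the nucleosome, were near the median of all genes or slightly above it. The H3 median was -0.03 over 3 genes, 0.04 above all genes, and the H4 median was 0.01 over 6 genes, 0.08 above all genes. Hist1h3d had a signal of 23200 on FGF18 and 20900 on PBS (-0.03) on a probe listing 4 genes. Hist2h3c1 had 35400 and 32600 (-0.06) on a probe listing Hist2h3b, Hist2h3c1 and Hist2h3c2. Hist1h3a, listed alone, was dim, with 67.1 and 51.2 (0.21).

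Among the H4 genes 5 of 6 were above the median of all genes. Hist4h4 was the highest, with 422 on FGF18 and 347 on PBS (0.10). Hist1h4f had 3320 and 2740 (0.10) on a probe that lists 4 genes, and Hist1h4h 2210 and 1930 (0.01) on a probe that lists no RefSeq histone transcript. Hist2h4, listed alone, had 1230 and 1080 (0.01). Hist1h4a was the lowest, with 823 and 766 (-0.08), and Hist1h4d had 2150 and 1850 on a probe with 4 genes (0.04) and 143 and 140 on a probe of its own (-0.15). Of the bright probes, Hist1h3d and Hist2h3c1 lay at -0.03 and -0.06, and the 4 H2A probes over 10000 lay between -0.48 and -0.35. The scanner software's error was 0.20 for each of these ratios. Of these probes only that of Hist1h2aa was more than 2 SD from the median of all genes, and only just (-0.408 against an SD of 0.204). The Hist1h2af and Hist2h2ac probes lay at -0.377 and -0.352 against that median.

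Linker histones of the replication-dependent class were mostly dim and uneven. Their median log2 ratio was -0.27 over 6 genes, or -0.20 against all genes, and 4 of the 6 were below the median of all genes. Hist1h1c was the one bright linker gene, with a signal of 4650 on FGF18 and 4780 on PBS (-0.22). Hist1h1e had 277 and 306 (-0.33), and Hist1h1a 47.0 and 52.9 (-0.35). Hist1h1b was the lowest, with 84.7 and 121 (-0.70). Hist1h1d was the highest, with 40.4 and 33.7 on one probe (0.08) and 59.6 and 38.8 on another (0.44). The probes of Hist1h1a, Hist1h1b and Hist1h1d, with PBS signals of 33.7 to 121, are dim ones. The median spot error of 0.12 belongs to a dim class that reaches mean signals of 408. For these probes the scanner software's error was larger: 0.29 for Hist1h1a, 0.23 for Hist1h1b, and 0.42 and 0.30 for Hist1h1d. The lowest signals called well above background were 23.3 on FGF18 and 24.2 on PBS.

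The testis-type histones are made in male germ cells, where they replace the somatic forms before protamines take over. Their 3 probes list 1 gene each, and in this skin RNA the probes of Hist1h2aa and Hist1h2ba were bright or moderate, as given above, while Hist1h1t was dim, with 54.2 on FGF18 and 45.2 on PBS (0.08). Of 5 other germ-cell transcripts, 3 were measured and these were dim: Tnp1 had 47.5 and 41.9, Tnp2 49.2 and 37.3, and Prm1 55.6 and 44.4. Prm2 was well above background only on the PBS array (29.6, with 18 on FGF18), and Ddx4 only on the FGF18 array (330, with 15.8 on PBS). Whether the Hist1h2aa probe measured Hist1h2aa or the RNA of other H2A genes was not tested. The log2 ratio of that probe, -0.48, is beside -0.45 and -0.42 for the replication-dependent H2A probes of like signal. Probes of like signal for the replacement genes H2afj, H2afv and H2afz were at -0.28, -0.26 and 0.01.

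Of the replacement core histones, H3.3 lay near the median of all genes. H3f3a and H3f3b encode the same H3.3 protein, which is placed into chromatin outside S phase as well as in it. For H3f3a the signals were 69100 on FGF18 and 66800 on PBS, 31400 and 29700, and 36700 and 33500, with log2 ratios of -0.13, -0.10 and -0.05. The probes of H3f3b gave 69700 and 61700, 52800 and 49200, and 113 and 101, with log2 ratios of -0.01, -0.08 and -0.02. The 6 H3.3 probes thus ran from -0.13 to -0.01, and their median was 0.01 above that of all genes.

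H2A.Z marks promoters and is encoded by H2afz and H2afv. H2afz had 40100 on FGF18 and 35000 on PBS (0.01) on the probe that the file places on chromosome 3; another probe with that name, placed on chromosome 6, was not well above background. H2afv had 39600 and 41800 (-0.26) on a probe that lists no RefSeq histone transcript. H2afx, the H2A form that is phosphorylated at DNA breaks and whose RNA is known both with a stem-loop end and with a poly(A) tail, had 15300 and 13400 (0.01). H2afj, a further H2A variant, had 46200 and 49600 (-0.28) and 1400 and 1530 (-0.31), the lowest replacement gene at -0.30. H2afj lay below the median of all genes, as did the probe named H2afv, and H2afz and H2afx lay above it.

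MacroH2A, an H2A with a large extra domain that is frequent in silent chromatin, is encoded by H2afy and H2afy2. H2afy had 3080 on FGF18 and 3250 on PBS (-0.26), 504 and 539 (-0.28), and 1380 and 1390 (-0.19), so that all 3 probes were below the median of all genes. The probe at -0.28 lists no RefSeq histone transcript. H2afy2 was dim, with 73.8 and 50.9, and its log2 ratio of 0.35 was the highest of the replacement genes. A probe named H2afy3, which the file places on chromosome 15 and which lists no RefSeq histone transcript, had 3090 and 2770 (-0.02).

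The replacement linker histones ran in opposite directions. H1f0, the H1 form known from cells that have stopped dividing, was higher on the FGF18 array on all 3 probes, with 594 and 372 (0.49), 417 and 278 (0.40), and 2170 and 1830 (0.06). Its gene value of 0.32 was 1.25-fold. H1fx had 180 on FGF18 and 208 on PBS (-0.39) and, on a probe that lists no RefSeq histone transcript, 2710 and 2630 (-0.14), both below the median of all genes. All 3 probes of H1f0 list the same gene, and the brightest of them had the smallest ratio.

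The genes that process histone RNA were measured throughout. Of 27 such genes, including the factors that cut histone pre-mRNA and the S phase switch at histone loci, 0 were 2-fold apart, beside 2.53% of all genes, and the median log2 ratio was -0.10. A count of 0 is near that share. Slbp, whose protein binds the histone stem-loop, had a signal of 5310 on FGF18 and 5140 on PBS (-0.13). Npat, the coactivator at histone loci, was at -0.18 and Casp8ap2, which is needed for histone RNA processing, at -0.17. Lsm10 and Lsm11, proteins of the U7 particle that directs the cut, were at -0.10 and -0.19, and Eri1, a nuclease that trims and degrades histone RNA, at -0.10. Sympk, a scaffold of the cleavage complex that also serves polyadenylation, was the highest, with 2960 and 1550 (0.75, 1.68-fold), and Upf1, a helicase of histone RNA decay, was the lowest at -0.42.

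The chaperones that carry histones to DNA were also measured throughout. Of 29 genes, 1 was 2-fold higher, beside 1.54% of all genes, 0 were lower, and the median log2 ratio was -0.06. Npm3, a nucleoplasmin, was the highest, with 2410 on FGF18 and 1000 on PBS (1.09). For S phase deposition, Chaf1a was at 0.03, Chaf1b at 0.11, Asf1a at 0.07, Asf1b at 0.00 and Nasp at -0.11. The H3.3 chaperones differed from one another: Daxx had 10400 and 6380 (0.52), and its partner Atrx was at 0.12. Hira was the lowest of the list at -0.71, with its 3 probes between -1.45 and -0.06. Its brightest probe, with 525 on FGF18 and 483 on PBS, was the one at -0.06. Over the 3 Hira probes the lowest signal was 53 with FGF18 and 79.7 with PBS. Each value is the minimum for its own array, and they are not a pair from 1 probe.

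S phase genes, in whose company replication-dependent histones are transcribed, lay about the median of all genes. Of 41 genes 0 were 2-fold apart, again near the 2.53% of all genes, their median log2 ratio was -0.02, Pcna was at -0.08, and the range ran from -0.18 (Clspn) to 0.62 (Pola2). The 5 markers of proliferating cells had a median of -0.15, with Mki67 at -0.15; Cdk1, the kinase that drives mitosis, was the highest of them, with 2170 on FGF18 and 1100 on PBS (0.80), and was named after its value was seen. The enzymes that write or erase core histone marks had a median of 0.00 over 15 genes, with 0 past 2-fold beside the same 2.53%, from -0.28 (Dot1l) to 0.80 (Kat2a). Of histone variants outside the naming rule 4 of 5 were measured: Cenpa, the centromeric H3, had 2100 on FGF18 and 2090 on PBS (-0.17), H1foo was at 0.01, H1fnt at -0.38, and H2bfm, a dim H2B-like gene, had 33.5 and 106 (-1.84). Markers of other cells moved too: the 5 fibroblast markers had a median log2 ratio of -0.60, with 3 of 5 lower by 1.5-fold (4.82% of all genes), the 4 markers of differentiated epidermis one of -0.48, with 1 of 4 lower by 2-fold (0.987% of all genes), and the 5 leukocyte markers one of 0.31, with 2 of 5 higher by 1.5-fold (3.79% of all genes) and Cd3e the lowest at -0.45. The 3 fibroblast markers counted as lower are averages of dim and bright probes that did not agree. Their probes ran from -1.13 to -0.31 (Col1a1), -0.99 to -0.51 (Col1a2) and -1.03 to -0.16 (Col3a1). For Col3a1 the bright probe, with 131000 on FGF18 and 129000 on PBS, was at -0.16, and the dim one had 89.3 and 161. The 8 interferon-response genes had a median of 2.79, and all 8 were at least 2-fold higher (1.54% of all genes). Basal keratinocyte, hair matrix and dermal papilla markers had medians of -0.06, 0.01 and -0.04, and those of muscle, adipocytes and endothelium 0.28, 0.10 and 0.02. Their part in the histone values was not tested.

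**Figure D4:**
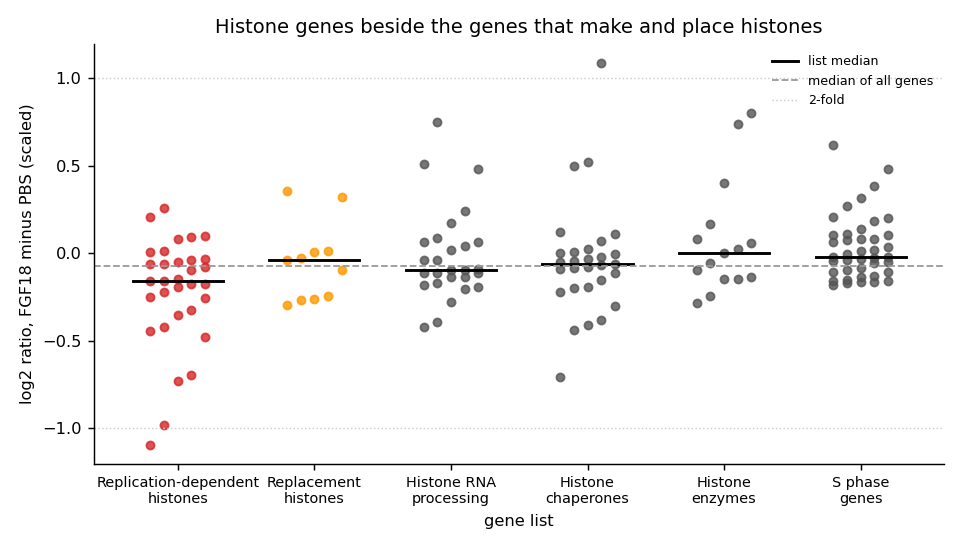
Log2 ratio (FGF18 minus PBS, scaled) of each measured gene in 6 lists; points are genes, bars are list medians, the dashed line is the median of all genes (-0.07) and dotted lines mark 2-fold. The replication-dependent histones have the lowest median (-0.16) and the lowest single value (-1.09) of the lists drawn, and the S phase genes reach no lower than -0.18.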

How the data were processed

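Poly(A) RNA was amplified from 200 ng and labelled with Cy3, per the labels' protocols. Per the file headers, Agilent Feature Extraction 9.5.3.1 read the scans (array design 014868). The deposited intensity values are the background-subtracted processed signal and its error, and the mean and local background signals; the other deposited columns, per the file headers, flag outliers, saturation and spots well above background. The authors' series value table holds a ratio: each processed signal over that array's median (FGF18 83.8, PBS 80.0), linear and in the same direction, with column medians of 1.00 and 0.999.

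Here the log2 of the processed signal was scaled by each array's 75th percentile after control and outlier spots (flagged on either array) were left out. Spots of a probe were averaged; a probe was measured if on both arrays a share of 0.5 or more of the spots exceeded background by the software's flag. The log2 ratios of a gene's measured probes were averaged. Histone genes kept the name in the files, and others were updated through RefSeq (GRCm38.p6), which also gave listed transcripts and promoters; the files name no build for their own coordinates. Python 3.11.15, numpy 2.4.6, pandas 2.3.3, R 4.3.3 and limma 3.58.1 (for the alternative normalizations) were used, and the computation was tested on simulated data. No test was made, as each group has 1 array; genes were counted at a fold of 2, with 1.5 and 3 as alternatives.

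The members and the gene lists were chosen with earlier results of these data known. Named genes were every replacement, testis-type and linker gene, the extremes of each family and of each list, and a fixed set of list genes; further H2A, H2B, H3 and H4 genes were named to complete their families.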

Additional observations from a re-analysis of the deposited data

How the results depend on the processing

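No paired analysis was possible because each group has 1 array. Of 17 other settings (scaling, background correction, filters, choice of probe and threshold) and 2 chosen after seeing the data (leaving out probes that list several histone genes, or none in RefSeq), several changed a count or a median. The replication-dependent genes at least 2-fold apart numbered 1, and 0 with scaling to the median, no scaling, normexp background correction, the series value table, probes of several genes left out, or a fold of 3; they numbered 4 at a fold of 1.5. Hist1h2ai, the gene concerned, was at -0.99 with median scaling, -0.91 without scaling and -0.98 with normexp or the series value table. Without a filter on dim probes, the median against all genes was 0.0244 for replication-dependent genes (main value -0.0885) and 0.0836 for replacement genes (main value 0.0355), and the difference of the class medians was -0.0592; with normexp that difference was -0.0821 (main value -0.124). The H2A and H1 medians stayed below, and the H3 and H4 medians above, the median of all genes in these settings, between -0.39 and -0.18 for H2A and between 0.06 and 0.15 for H4. Signals near the floor limit what the dim H1, H2A and H3 probes can show, and with 1 array per group the spread between mice is unknown.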
